A study of Mus musculus with 9 samples.

Results

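The genes of oxidative phosphorylation were followed in RNA-seq of embryonic mouse lung. A gene was a member if its symbol began with Nduf, Uqcr, Atp5, Cox4 to Cox8, mt-Nd, mt-Co, mt-Atp or mt-Cyt, or was Sdha, Sdhb, Sdhc or Sdhd; of the 119 symbols so matched, 9 containing -ps were left out. This gave 110 members of the 55286 genes in the deposited tables, 97 encoded in the nucleus and 13 in the mitochondrial genome. The names cover complex I (39 nuclear and 7 mitochondrial members), complex II (4 nuclear), complex III (8 and 1), complex IV (21 and 3), complex V (16 and 2), and 9 assembly or coupling factors. A few subunits fall outside the rule by their older symbols, among them Usmg5, Atpif1 and Cyc1. All samples were wild-type, and the labels give no strain. The EPZ5676 group held lungs taken at E11.5, a stage counted in embryonic days, and cultured for 72 h with EPZ5676, also called pinometostat, a small molecule that blocks the histone H3 lysine methyltransferase DOT1L. The control explants were cultured for 72 h as the untreated arm; the dose and the vehicle are not given in the sources used here, and the E11.5 group was fresh lung that had not been cultured. Each group held 3 libraries, for 9 in all, of 6509563 to 9861452 counts. Nothing in the labels ties the 3 libraries of a group to different embryos or dishes, and a p-value here measures no more than the spread between libraries. Errors after log2 fold changes are standard errors.

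Oxidative phosphorylation makes ATP in the inner mitochondrial membrane. Complexes I and II feed electrons from NADH and succinate into ubiquinone, complexes III and IV pass them by way of cytochrome c to oxygen, and complex V, the ATP synthase, makes ATP with the proton gradient that complexes I, III and IV build. Complexes I, III, IV and V join subunits made in mitochondria, mostly hydrophobic catalytic or channel proteins, to subunits imported from the cytosol, whereas complex II is wholly nuclear. Mitochondrial genes are transcribed as long RNAs from both DNA strands and cut at the tRNAs between them, and the embryo also makes much of its ATP by glycolysis.

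The mitochondrial rows of the tables need care, because the mouse nuclear genome carries a near-exact copy of part of the mitochondrial genome on chromosome 1, in which most of the annotated genes are named as pseudogenes. On GRCm38, the copy Gm28661 (chr1:24614885-24615565, minus strand) was identical to mt-Co2 (chrM:7013-7696, plus strand) over 681 of 684 bases. Gm28437 (chr1:24613189-24613971) was identical to mt-Co3 (chrM:8607-9390) over 783 of 784 bases, and Gm10925 (chr1:24613974-24614651) to mt-Atp6 (chrM:7927-8607) over 678 of 681. The last 60 bases of each copy are shown beside the end of its mitochondrial gene, with capitals for the bases that the annotated copy lacks; no other base separates them there.
mt-Co2: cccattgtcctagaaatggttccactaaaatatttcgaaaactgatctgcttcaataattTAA
Gm28661: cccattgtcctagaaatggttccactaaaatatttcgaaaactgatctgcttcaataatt
mt-Co3: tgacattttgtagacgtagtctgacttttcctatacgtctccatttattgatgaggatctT
Gm28437: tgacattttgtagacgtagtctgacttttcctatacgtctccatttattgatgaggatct
mt-Atp6: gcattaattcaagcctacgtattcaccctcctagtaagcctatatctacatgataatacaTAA
Gm10925: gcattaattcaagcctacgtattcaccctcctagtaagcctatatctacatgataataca

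The authors' estimates divided reads between these pairs in shares that differed from library to library. Of the counts on mt-Co2 and its copies, the mitochondrial row held 2.75%, 5.71% and 4.16% in the EPZ5676 libraries, 2.18%, 5.63% and 5% in the control libraries and 2.77%, 2.11% and 4.06% in fresh lung. For mt-Co3 that share was 15.4%, 22% and 9.20% with EPZ5676, 17.4%, 14.6% and 13.2% in controls and 7.32%, 4.06% and 7.96% in fresh lung. The mt-Atp6 row held 37.5%, 39.4% and 41.3%, 42.1%, 37.2% and 44.9%, and 30.4%, 30.1% and 31.5% in the same order. Both cultured groups thus lay above fresh lung in the share of mt-Co3 and of mt-Atp6 counts on the mitochondrial row, while for mt-Co2 the groups overlapped. Shares on the mitochondrial row were 41.2% to 80.8% for mt-Nd3 (copy Gm28438), 70.7% to 87.1% for mt-Nd4l (Gm10222) and 97.2% to 99.0% for mt-Co1 (Gm29216 and smaller copies) across the 9 libraries. mt-Nd1, mt-Nd6, mt-Cytb and mt-Atp8 shared no stretch of 50 bases with another annotated gene, and for mt-Nd4 the copy Gm28439 was at 0 counts in every library. Values below are therefore given for the mitochondrial rows as deposited and with the annotated copies added, the second chosen after seeing the data.

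With EPZ5676, no member differed from control explants past the threshold. Of the 101 members with enough counts to test, 0 were called higher and 0 lower at an adjusted p of 0.05 (edgeR quasi-likelihood test), where 0% of all 15158 genes tested were called. DESeq2 and limma also called 0 members, although DESeq2 called 67 genes higher and 16 lower among all genes. At an unadjusted p under 0.05 there was 1 member, beside 6.94% of all genes. The median log2 fold change was -0.06 over the members, beside -0.0038 over all genes, and 75 of the 101 members lay below 0, beside 50.8% of all genes. That direction rested on a single library: without Control 3, 31 members lay below 0 and the median was 0.04. The member under 0.05 was Ndufa7, an accessory subunit of complex I, at 206, 157 and 196 TPM with EPZ5676 against 231, 211 and 209 TPM in controls. Its groups did not overlap, but its log2 fold change of -0.25 ± 0.11 had an edgeR adjusted p of 0.691. In 4 of the 101 members the library-scaled counts of both groups did not overlap, beside 10.2% of all genes.

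By complex, the medians of this comparison lay close to 0. The median log2 fold change with EPZ5676 was -0.04 for nuclear complex I (37 tested), -0.04 for complex II (4), -0.10 for nuclear complex III (8), -0.06 for nuclear complex IV (14), -0.06 for nuclear complex V (16) and 0.02 for the assembly factors (9). The 13 mitochondrial members had a median of -0.07 and the 88 nuclear members one of -0.06. Their summed level was equally close: the mitochondrial members summed to 110960 ± 2670 TPM with EPZ5676 and 110950 ± 5843 TPM in controls, and the nuclear members to 16948 ± 492 and 17235 ± 73.6 TPM in the same order (SD, n = 3 each).

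**Figure D1:**
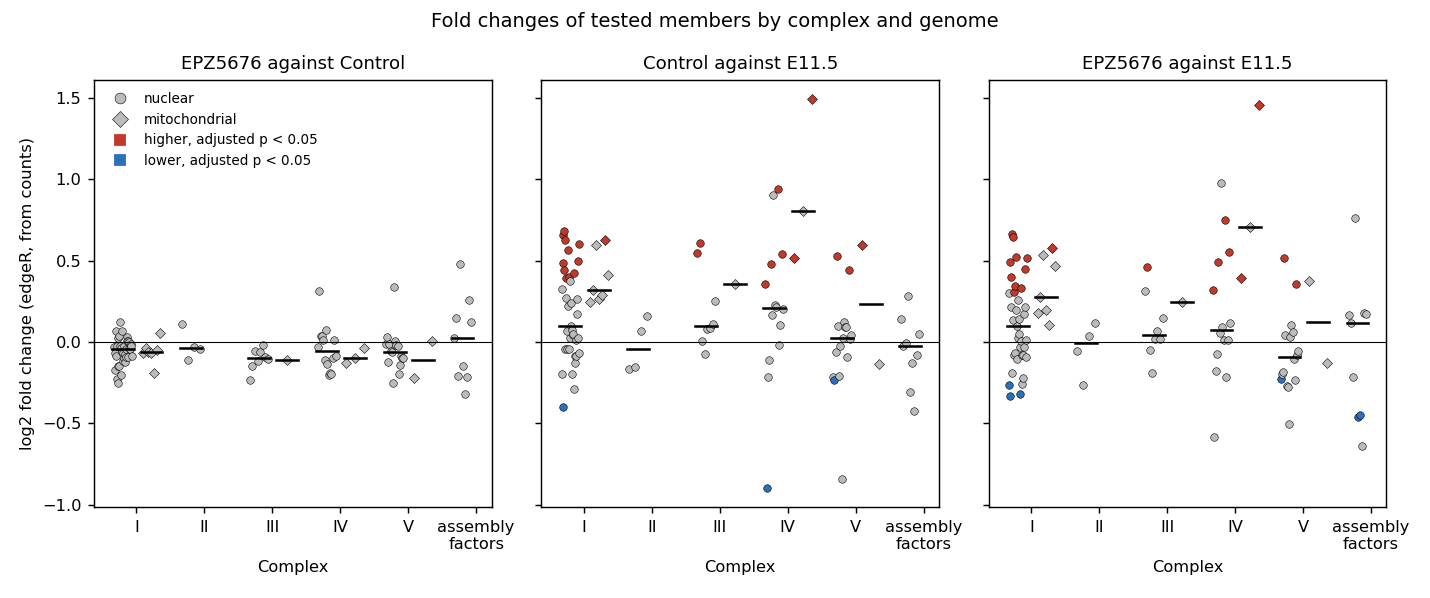
Log2 fold changes from counts (edgeR) of the 101 tested members in each comparison, by complex; circles are nuclear and diamonds mitochondrial members, red and blue mark members called higher and lower, and bars are medians. EPZ5676 against Control has no called member, while both comparisons with fresh lung have called members at every complex but complex II.

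Against fresh lung, members called higher were found in complexes I, III, IV and V, at about the share of all genes, and few members were called lower. In control explants 23 members were called higher and 3 lower (edgeR), shares of 22.8% and 2.97% of the 101 tested, where 21.1% of all genes were called higher and 16.6% lower (37.7% in either direction). In EPZ5676 explants 20 were higher and 6 lower, 19.8% and 5.94% of those tested, beside 22.1% and 17.9% of all genes (40% in either direction). The share of members called higher was thus near that of all genes in both comparisons, and the share called lower was below it. Both comparisons use the same 3 fresh libraries, so one is no repeat of the other. The median log2 fold change over the members was 0.10 in controls and 0.07 with EPZ5676, beside 0.02 over all genes in each. In bulk RNA a change in the share of cells of one type and a change of RNA per cell cannot be told apart. Transcripts of other cells did change between these groups: all 10 erythroid markers together summed to 66.0 to 1024 TPM with EPZ5676, 113 to 1180 TPM in controls and 17970 to 24930 TPM in fresh lung, and 7 lung epithelial markers to 1289 to 2066, 851 to 1514 and 248 to 266 TPM. Endothelial markers (6 genes) summed to 17.8 to 45.4, 9.30 to 67.3 and 162 to 182 TPM, and macrophage markers (7 genes) to 192 to 279, 131 to 212 and 29.0 to 49.0 TPM. Their part in the results was not tested.

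These counts depended on single libraries. For controls the number called higher was 14 without E11.5 2 and 12 without E11.5 3, and the number called lower was 0 without Control 1, E11.5 2 or E11.5 3 and 1 without Control 2 or any one of the EPZ5676 libraries, which share the estimate of spread. For EPZ5676 explants the number called higher was 12 without E11.5 1, 10 without E11.5 2, 6 without E11.5 3, 12 without EPZ5676 2 and 8 without EPZ5676 3. Its number called lower was 2, 0 and 0 without E11.5 1, 2 and 3, 1, 2 and 1 without EPZ5676 1, 2 and 3, and 3 without Control 2. Control 1 differed from the other libraries in markers of other tissues: heart muscle genes summed to 231 TPM there and 54.3 to 124 TPM elsewhere, and hepatocyte genes to 236 TPM against 0.67 to 26.0 TPM. Without it, 31 members were called higher and 0 lower in controls. Of the called rises, 9 of 23 in controls and 5 of 20 with EPZ5676 were called in every fit that left out 1 of the 9 libraries, and of the falls none was. Those that were kept are Cox4i1, Cox6a1, Cox7a2l, Ndufa3, Ndufa11, Ndufs8, Ndufv3, Uqcr11 and mt-Co1 for controls, and Cox6a1, Cox8a, Ndufa3, Ndufa6 and mt-Co3 for EPZ5676 explants. These lists cover leaving out libraries alone; other settings ended some of these calls, as given for mt-Co3, Cox6a1 and Uqcr11.

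Of the 3 mitochondrial genes of complex IV, the deposited rows of 2 were called higher in each comparison (66.7%). Of all genes 22.1% were called higher with EPZ5676 and 21.1% in controls. mt-Co1 encodes the catalytic subunit that reduces oxygen. The deposited row of mt-Co1 was at 15057, 13990 and 14213 TPM with EPZ5676, 14992, 14593 and 16103 TPM in controls and 11557, 10588 and 11053 TPM in fresh lung. All 6 cultured libraries lay above the 3 fresh ones, with a log2 fold change of 0.39 ± 0.13 with EPZ5676 (edgeR adjusted p = 0.0320) and 0.52 ± 0.13 in controls (edgeR adjusted p = 0.00927). With its copies added the log2 fold changes of mt-Co1 were 0.39 ± 0.13 (edgeR adjusted p = 0.0336) and 0.50 ± 0.13 (edgeR adjusted p = 0.0110) in the same order. The EPZ5676 call ended when any one of the EPZ5676 or fresh libraries was left out.

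mt-Co3, a core subunit without a metal centre, had the largest deposited change of all members. Its row was at 2281, 3421 and 1449 TPM with EPZ5676, 2364, 2378 and 2404 TPM in controls and 1027, 525 and 1053 TPM in fresh lung. The groups did not overlap, and the log2 fold change was 1.46 ± 0.36 with EPZ5676 (edgeR adjusted p = 0.0134) and 1.49 ± 0.36 in controls (edgeR adjusted p = 0.0130; without Control 3 it was not called). With the replicate number as a block, neither was called (edgeR adjusted p = 0.0574 with EPZ5676 and 0.0518 in controls), nor with no filter on low counts (0.0591 and 0.0575), and with 6 libraries in the fit the EPZ5676 call was lost (0.0637). Once the copy Gm28437 was added, mt-Co3 was at 14853, 15574 and 15784 TPM with EPZ5676, 13609, 16278 and 18257 TPM in controls and 14051, 12966 and 13246 TPM in fresh lung. Controls then overlapped fresh lung, and neither change was called: 0.19 ± 0.17 with EPZ5676 (edgeR adjusted p = 0.395) and 0.31 ± 0.17 in controls (edgeR adjusted p = 0.171). The same happened to mt-Atp6, the proton channel subunit of complex V, whose deposited row was higher in controls by 0.60 ± 0.18 (edgeR adjusted p = 0.0251; not called without any one of the fresh libraries) and whose summed value was higher by 0.16 ± 0.16 (edgeR adjusted p = 0.463). mt-Co2, which takes electrons from cytochrome c, was at 317 to 1098 TPM on its own row and at 15078 to 19607 TPM with copies. Its change was not called on either.

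Complex I genes of the mitochondrial genome encode its proton-pumping membrane arm. mt-Nd5 was at 3982, 3784 and 4082 TPM with EPZ5676, 3747, 4203 and 3930 TPM in controls and 3380, 1824 and 2799 TPM in fresh lung. Every cultured library lay above every fresh one, although fresh lung itself ranged widely. Its log2 fold change was 0.58 ± 0.20 with EPZ5676 (edgeR adjusted p = 0.0409) and 0.63 ± 0.20 in controls (edgeR adjusted p = 0.0309); neither was called without E11.5 2, E11.5 3 or Control 2, and further libraries ended each call. mt-Nd3 on its own row was not called, with 2166 to 3731 TPM with EPZ5676, 2571 to 3033 TPM in controls and 1259 to 3010 TPM in fresh lung. With its copy added, mt-Nd3 was at 4634, 3991 and 4238 TPM with EPZ5676, 4169, 4380 and 3792 TPM in controls and 3745, 2503 and 3084 TPM in fresh lung. That sum was called higher in both, by 0.38 ± 0.13 with EPZ5676 (edgeR adjusted p = 0.0441) and by 0.38 ± 0.13 in controls (edgeR adjusted p = 0.0473). In library-scaled counts of the sum, controls overlapped fresh lung, and the EPZ5676 libraries lay above it. Sums with copies were not refitted with libraries left out, so how far these calls rest on single libraries is unknown. mt-Nd1, mt-Nd2, mt-Nd4, mt-Nd4l and mt-Nd6 were not called in either comparison, on either count; mt-Nd6 is the only one of the 13 on the minus strand. mt-Cytb, the mitochondrial subunit of complex III, was at 10014 to 10959 TPM with EPZ5676, 9681 to 12132 TPM in controls and 8781 to 9029 TPM in fresh lung. In TPM its cultured libraries did not overlap fresh lung. In library-scaled counts, which the test used, controls overlapped fresh lung and the EPZ5676 libraries did not. Its log2 fold changes of 0.24 ± 0.16 with EPZ5676 and 0.35 ± 0.16 in controls had edgeR adjusted p values of 0.247 and 0.103.

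**Figure D2:**
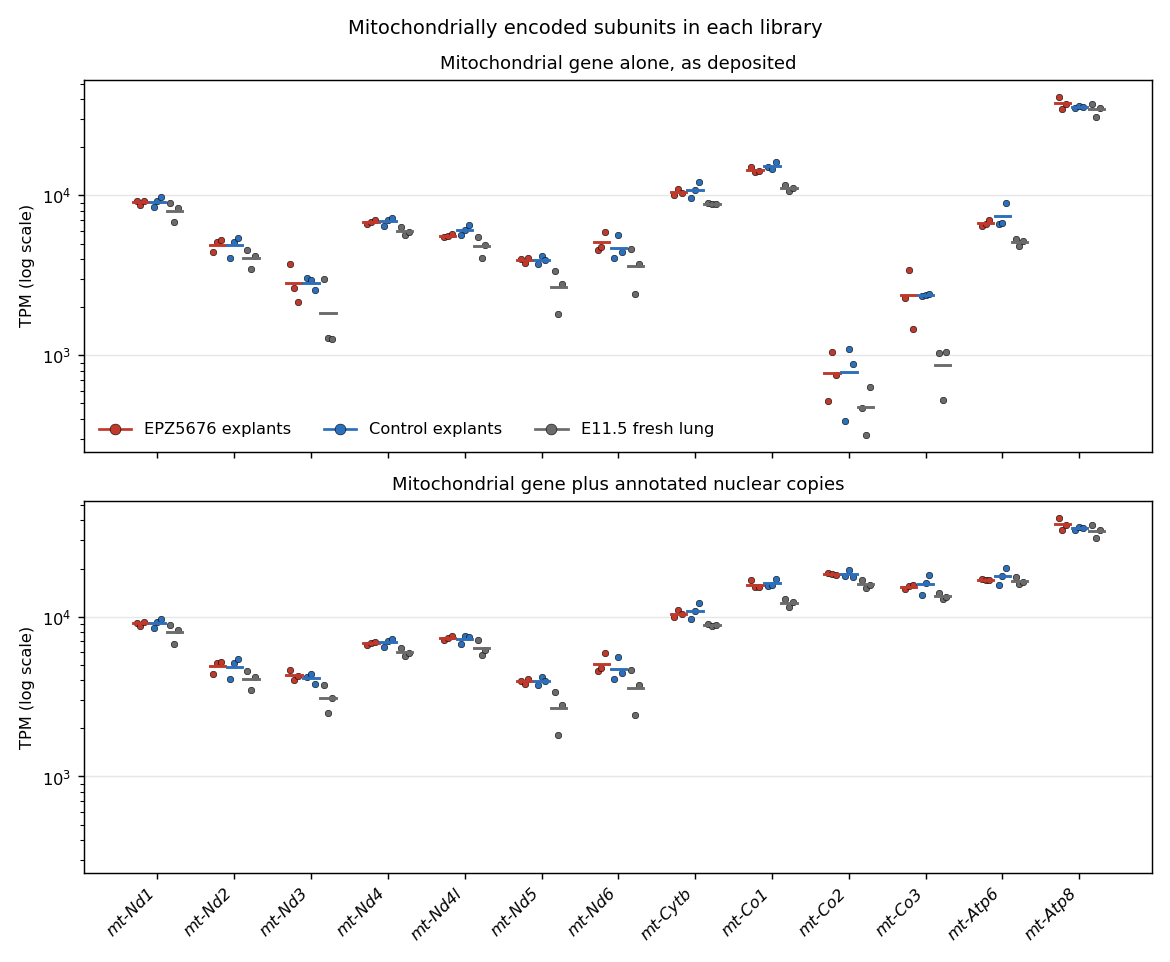
TPM (log axis) of the 13 mitochondrially encoded members in each library, for the mitochondrial row alone (upper panel) and with annotated nuclear copies added (lower panel); points are libraries and bars group means. Adding copies places mt-Co2 at 15078 to 19607 TPM, against 317 to 1098 TPM on its own row, and brings mt-Co3 of fresh lung next to the explants.

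mt-Atp8, a small membrane subunit of complex V, had the highest TPM of all members, at 41507, 34937 and 37445 with EPZ5676, 35028, 36251 and 35845 in controls and 37604, 30850 and 35054 in fresh lung. Its groups overlapped in both comparisons. The gene spans 204 bases (chrM:7766-7969), so its TPM rests on a division by a very short effective length. Its last 43 bases are also the first of mt-Atp6, here printed in lower case with the mt-Atp6 start codon first and the mt-Atp8 stop codon at the end, and reads there belong to both.
mt-Atp8 and mt-Atp6 overlap: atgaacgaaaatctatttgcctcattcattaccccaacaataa

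Summed over the mitochondrial genome, the groups were compared as shares of each library. On the deposited rows the 13 members took 4.25%, 4.62% and 4.51% of counts with EPZ5676, 3.97%, 4.6% and 5.31% in controls and 3.79%, 3.09% and 3.53% in fresh lung, without overlap. With the copies added these shares were 5.76%, 6.18% and 6.11%, then 5.27%, 6.26% and 7.12%, against 5.35%, 4.50% and 4.98%. The EPZ5676 libraries still lay above fresh lung, but Control 1 lay below E11.5 1. In relation to the nuclear members, summed counts of the mitochondrial members with copies were 8.32 ± 0.25 times as high with EPZ5676, 8.48 ± 0.89 times in controls and 6.92 ± 0.64 times in fresh lung (SD, n = 3 each). By library, Control 1 at 7.51 lay below E11.5 1 at 7.58, while all EPZ5676 libraries lay above fresh lung. From summed TPM with copies the mean ratios were 9.25 with EPZ5676, 9.06 in controls and 8.17 in fresh lung. Controls again overlapped fresh lung, and the EPZ5676 libraries lay above it. No test was made of these sums or ratios.

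**Figure D3:**
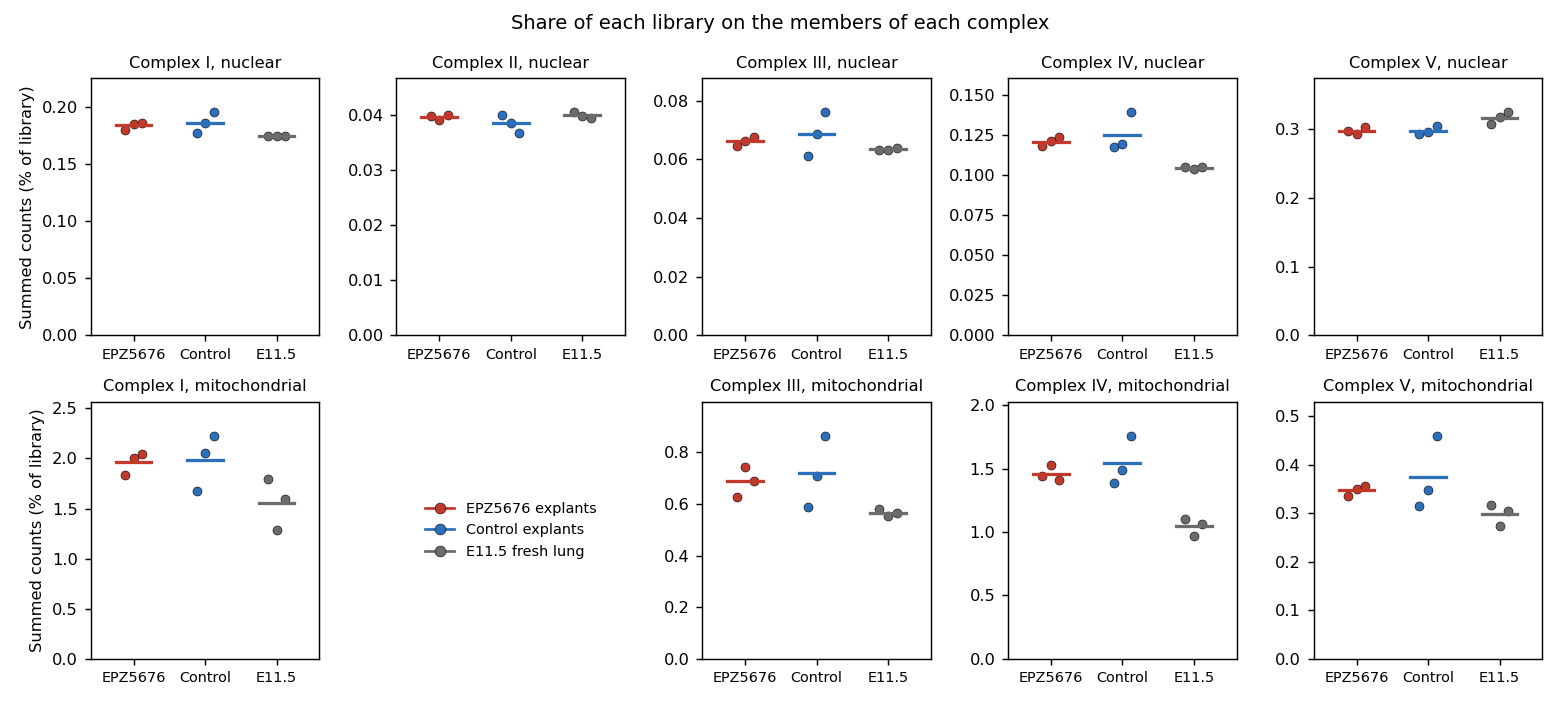
Summed counts of the members of each complex as a percentage of the library, on the deposited rows, for nuclear (upper row) and mitochondrial (lower row) members; points are libraries and bars group means, and each axis starts at 0. Nuclear complex IV and mitochondrial complex IV lie higher in all 6 explant libraries than in fresh lung, and nuclear complex V lies lower.

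The nuclear genes of each complex were summed in the same way. Nuclear complex IV members took 0.118%, 0.121% and 0.124% of counts with EPZ5676, 0.117%, 0.119% and 0.139% in controls and 0.105%, 0.104% and 0.105% in fresh lung. Nuclear complex I members took 0.180% to 0.186%, 0.177% to 0.196% and 0.174% to 0.175% in the same order, and nuclear complex III members 0.0647% to 0.0675%, 0.0612% to 0.0762% and 0.0630% to 0.0640%. In these shares both cultured groups were above fresh lung for complexes IV and I, while for complex III the EPZ5676 libraries were above and controls overlapped. In summed TPM complex III was above fresh lung in both, at 1831 to 1927 with EPZ5676, 1840 to 2071 in controls and 1733 to 1793 in fresh lung. Nuclear complex V members took 0.293% to 0.304%, 0.293% to 0.305% and 0.307% to 0.326% of counts, with both cultured groups below fresh lung. Their summed TPM overlapped, at 5401 to 5726, 5626 to 5673 and 5605 to 6015. Within complex V the F1 subunits (5 genes) took 0.174% to 0.187%, 0.175% to 0.182% and 0.193% to 0.205% of counts, without overlap between culture and fresh lung. In summed TPM the F1 subunits of controls stayed below fresh lung, at 1927 to 2093 against 2128 to 2342. With EPZ5676 they overlapped it, at 1912 to 2144. The Fo and stalk subunits (11 genes) overlapped in counts, at 0.114% to 0.119%, 0.111% to 0.130% and 0.115% to 0.120%. Of the 16 members, 6 lay above 0 in log2 fold change with EPZ5676 and 9 in controls. The summed counts of the 4 complex II genes overlapped, at 0.0391% to 0.0400%, 0.0368% to 0.0401% and 0.0394% to 0.0406%. In summed TPM their EPZ5676 libraries lay below fresh lung, at 422 to 441 against 443 to 514, and controls overlapped at 401 to 476.

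In complex I, 10 of 37 tested nuclear members were called higher and 3 lower with EPZ5676 (27% and 8.11%, beside 22.1% and 17.9% of all genes). In controls 11 were higher and 1 lower (29.7% and 2.7%, beside 21.1% and 16.6% of all genes). Of the 7 core subunits, which carry the flavin and iron-sulfur clusters, Ndufs8 was the one called. It was at 105, 108 and 117 TPM with EPZ5676, 113, 111 and 109 TPM in controls and 76.6, 77.0 and 83.2 TPM in fresh lung, without overlap. Its log2 fold change was 0.45 ± 0.12 (edgeR adjusted p = 0.0118; not called without EPZ5676 3) and 0.50 ± 0.12 (edgeR adjusted p = 0.00796). The other calls fell on accessory subunits, which surround the core. Ndufa3 (chr7:3617373-3620327), a small membrane subunit, was at 233, 176 and 165 TPM with EPZ5676, 202, 159 and 186 TPM in controls and 117, 128 and 106 TPM in fresh lung. Its lowest cultured library lay above its highest fresh one, and the log2 fold change was 0.66 ± 0.15 with EPZ5676 (edgeR adjusted p = 0.00634) and 0.68 ± 0.15 in controls (edgeR adjusted p = 0.00585). Ndufa6, a subunit that binds the mitochondrial acyl carrier protein, was at 197, 196 and 171 TPM with EPZ5676, 154, 191 and 193 TPM in controls and 133, 124 and 127 TPM in fresh lung. It rose by 0.65 ± 0.16 (edgeR adjusted p = 0.00884) and by 0.62 ± 0.16 (edgeR adjusted p = 0.0114; not called without E11.5 3). Ndufv3, an accessory subunit beside the NADH site, rose by 0.52 ± 0.13 with EPZ5676 (edgeR adjusted p = 0.0113; not called without E11.5 3) and by 0.60 ± 0.13 in controls (edgeR adjusted p = 0.00563).

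Ndufa11, Ndufa13, Ndufb11 and Ndufc2 were also called higher in both comparisons, with log2 fold changes of 0.33 to 0.52 with EPZ5676 and 0.42 to 0.66 in controls; these calls were kept in 3 to 5 and in 6 to 9 of the 9 leave-one-out fits. Ndufa2, Ndufa7 and Ndufb2 were called in controls alone, and kept in 3, 7 and 3 of the 9 leave-one-out fits. Ndufa8 and Ndufb10 were called with EPZ5676 alone, and kept in 4 and 5 of the 9. All 5 calls were lost without E11.5 3, most of them also without other libraries. Under 12 other settings Ndufb2 and Ndufa8 were called in 7 each. No difference between EPZ5676 and control explants passed for any of these 5. Falls were fewer. Ndufa12, which takes the place of the assembly factor Ndufaf2 late in complex I assembly, was at 200, 190 and 228 TPM with EPZ5676, 193, 211 and 172 TPM in controls and 234, 268 and 268 TPM in fresh lung, without overlap. It fell by 0.33 with EPZ5676 (SE 0.12, edgeR adjusted p = 0.0411) and by 0.40 in controls (SE 0.12, edgeR adjusted p = 0.0201), and neither call held without E11.5 2 or E11.5 3, the EPZ5676 call also not without EPZ5676 1 or EPZ5676 2, and the control call not without Control 1. Ndufb8 was called lower with EPZ5676, at 214, 146 and 183 TPM against 221, 226 and 231 TPM in fresh lung (log2 fold change -0.32 ± 0.12, edgeR adjusted p = 0.0481; kept in 3 of 9 fits that left out a library).

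Ndufa10 differed by far more in TPM than in counts. It was at 86.8, 125 and 115 TPM with EPZ5676, 122, 98.1 and 91.1 TPM in controls and 173, 179 and 193 TPM in fresh lung, a log2 ratio of mean TPM of -0.74 and -0.81. From counts its log2 fold change was -0.27 ± 0.08 with EPZ5676 (edgeR adjusted p = 0.0270; kept in 4 of 9 fits that left out a library) and -0.20 ± 0.08 in controls (edgeR adjusted p = 0.0842). TPM divides counts by the effective length of the transcripts the authors' estimate chose, and that length rose for Ndufa10 by 0.44 and 0.54 on the log2 scale, where the middle 90% of 9613 genes lay between -0.16 and 0.19 with EPZ5676 and between -0.17 and 0.20 in controls. The gene has 8 annotated transcripts, the longest of 2020 bases, so the size of its fall depends on how reads were assigned to them.

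**Figure D4:**
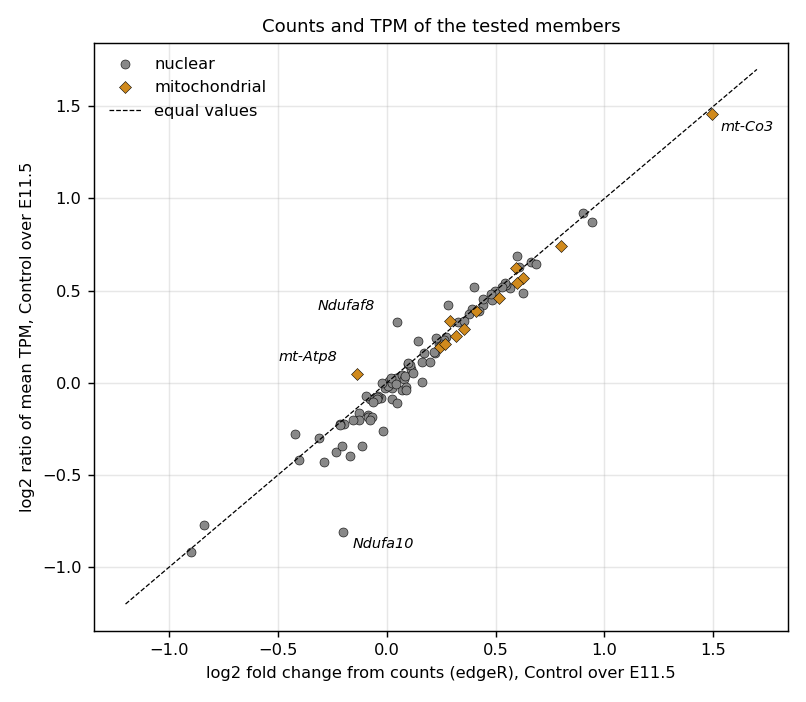
Log2 fold change from counts (x axis) against log2 ratio of mean TPM (y axis) of the 101 tested members, Control over E11.5; circles are nuclear and diamonds mitochondrial members and the dashed line marks equal values. Ndufa10 lies farthest from the line, at -0.20 from counts and -0.81 in TPM.

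Complex II joins the citric acid cycle to the respiratory chain. None of its 4 genes was called in either comparison with fresh lung (edgeR; 1 at an unadjusted p under 0.05 with EPZ5676 and 0 in controls, beside 48.9% and 47.1% of all genes). Sdha, the flavoprotein, was at 105, 96.6 and 101 TPM with EPZ5676, 109, 94.6 and 67.4 TPM in controls and 104, 151 and 101 TPM in fresh lung. Sdhb, the iron-sulfur subunit, was at 117, 99.8 and 110 TPM, 114, 111 and 117 TPM, and 131, 131 and 131 TPM, with both cultured groups below fresh lung. Its log2 fold change was -0.27 ± 0.11 with EPZ5676 (edgeR adjusted p = 0.0640) and -0.15 ± 0.10 in controls (edgeR adjusted p = 0.276). The membrane anchors Sdhc and Sdhd were at 91.5 to 132 and 107 to 126 TPM across the 9 libraries, with overlap in both comparisons for Sdhc.

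In complex III, 1 of 8 nuclear members was called higher with EPZ5676 (12.5%, beside 22.1% of all genes). In controls 2 were called higher (25%, beside 21.1% of all genes). There were 0 falls in either, beside 17.9% and 16.6% of all genes. Uqcr11, a small subunit, was at 222, 134 and 154 TPM with EPZ5676, 228, 169 and 153 TPM in controls and 124, 121 and 111 TPM in fresh lung. All cultured libraries were above all fresh ones, by a log2 fold change of 0.46 ± 0.15 with EPZ5676 (edgeR adjusted p = 0.0351; kept in 4 of 9 fits that left out a library) and 0.61 ± 0.15 in controls (edgeR adjusted p = 0.0105). Uqcr10, another small subunit, was called in controls (0.55 ± 0.17, edgeR adjusted p = 0.0276; kept in 4 of 9 such fits). The large core proteins Uqcrc1 and Uqcrc2 and the iron-sulfur protein Uqcrfs1 were not called; Uqcrh had the highest level of the complex at 425 to 624 TPM across the 9 libraries.

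In complex IV, 4 of 14 tested nuclear members were called higher with EPZ5676 and 0 lower (28.6% and 0%, beside 22.1% and 17.9% of all genes). In controls 4 were higher and 1 lower (28.6% and 7.14%, beside 21.1% and 16.6% of all genes). Cox7a2l (chr17:83501918-83517330), which links complexes III and IV in supercomplexes, was at 225, 249 and 219 TPM with EPZ5676, 210, 223 and 323 TPM in controls and 154, 129 and 130 TPM in fresh lung. It had the largest called rise of any nuclear member, 0.75 ± 0.22 with EPZ5676 (edgeR adjusted p = 0.0243; kept in 5 of 9 such fits) and 0.94 ± 0.22 in controls (edgeR adjusted p = 0.00937), and its control value was 0.60 without Control 3. Of its stretches of 50 bases, 13.8% also occur in the pseudogene Gm6969. The Gm6969 row was at 248, 334 and 294 TPM with EPZ5676, 258, 270 and 363 TPM in controls and 164, 165 and 161 TPM in fresh lung. How reads were divided between these rows was not tested. Cox6a1 (chr5:115345642-115348981) was at 305, 234 and 255 TPM with EPZ5676, 333, 240 and 201 TPM in controls and 182, 200 and 172 TPM in fresh lung. Its rise of 0.49 ± 0.12 (edgeR adjusted p = 0.00685) and 0.48 ± 0.12 (edgeR adjusted p = 0.00842) was called in all 9 fits that left out a library in both comparisons, although Control 3 was within 1 TPM of E11.5 2. With limma on log2(TPM + 1) Cox6a1 was not called in either (limma adjusted p = 0.0640 with EPZ5676 and 0.10 in controls). That setting also ended both calls of Uqcr11, Atp5d and Ndufa13, and the control calls of Cox8a and mt-Nd5. The EPZ5676 calls of Ndufa8, Ndufa12, Ndufb8 and Atp5a1 were lost with it too. Cox8a rose by 0.55 ± 0.14 (edgeR adjusted p = 0.00843) and 0.54 ± 0.14 (edgeR adjusted p = 0.0102; not called without E11.5 2). In Cox6a1, Cox8a, Uqcr11 and the complex V subunit Atp5d, EPZ5676 1 and Control 1 were the highest library of their groups; these 2 libraries also held the most counts, 8235720 and 9861452.

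Several complex IV subunits exist as isoforms of different genes. Cox4i1, the common form, was at 532, 464 and 483 TPM with EPZ5676, 535, 458 and 477 TPM in controls and 396, 385 and 384 TPM in fresh lung. It rose by 0.32 ± 0.09 with EPZ5676 (edgeR adjusted p = 0.0128; not called without E11.5 2 or E11.5 3) and by 0.35 ± 0.09 in controls (edgeR adjusted p = 0.00859). Cox4i2, the isoform known from lung and from cells at low oxygen, lay far below that level, with 5.43, 4.19 and 4.99 TPM with EPZ5676, 4.10, 4.09 and 3.31 TPM in controls and 6.10, 7.47 and 8.19 TPM in fresh lung. All 6 cultured libraries were below the 3 fresh ones, by a log2 fold change of -0.59 ± 0.31 with EPZ5676 (edgeR adjusted p = 0.153) and -0.90 ± 0.31 in controls (edgeR adjusted p = 0.0436; not called without any one of the 9 libraries). Cox6b2, the testis form of Cox6b1, was at 25.4 to 54.8 TPM with EPZ5676, 24.3 to 42.1 TPM in controls and 15.0 to 21.7 TPM in fresh lung, without a call. Heart and muscle isoforms were near 0: Cox6a2, Cox7a1 and Cox8b did not pass the filter on low counts, with Cox7a1 highest at 5.11 TPM in Control 2, and the same held for Ndufa4l2, a gene induced at low oxygen, with up to 1.98 TPM. The other members not tested were Cox7b2, Cox6c2, Cox8c, Ndufa11b and Ndufs6b, 9 in all, of which 3 were at 0 in every library.

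In complex V, 2 of 16 nuclear members were called higher and 1 lower in each comparison (12.5% and 6.25%). Of all genes 22.1% and 17.9% were so called with EPZ5676, and 21.1% and 16.6% in controls. The F1 subunits held both directions. Atp5d, a subunit of the central stalk, was at 228, 136 and 168 TPM with EPZ5676, 229, 156 and 143 TPM in controls and 121, 127 and 120 TPM in fresh lung, a rise of 0.51 ± 0.14 (edgeR adjusted p = 0.0162; not called without EPZ5676 1, E11.5 1 or E11.5 3) and 0.53 ± 0.14 (edgeR adjusted p = 0.0150; not called without Control 1 or E11.5 3). Atp5b, the catalytic beta subunit and the nuclear member with the highest TPM, was at 767, 703 and 786 TPM with EPZ5676, 725, 756 and 644 TPM in controls and 860, 938 and 954 TPM in fresh lung. Every cultured library lay below every fresh one, by -0.20 ± 0.08 with EPZ5676 (edgeR adjusted p = 0.0747) and -0.23 ± 0.08 in controls (edgeR adjusted p = 0.0461; kept in 1 of 9 fits that left out a library). Its partner Atp5a1, the alpha subunit, fell by 0.23 with EPZ5676 (SE 0.08, edgeR adjusted p = 0.0454; kept in 2 of 9) and had -0.21 ± 0.08 in controls (edgeR adjusted p = 0.0591). In the membrane part, Atp5l was at 429, 405 and 398 TPM with EPZ5676, 447, 371 and 438 TPM in controls and 310, 333 and 275 TPM in fresh lung, and rose by 0.36 ± 0.11 (edgeR adjusted p = 0.0279; kept in 4 of 9) and 0.44 ± 0.11 (edgeR adjusted p = 0.0111; not called without E11.5 3). Atp5g1, Atp5g2 and Atp5g3, which encode the same mature ring subunit, were not called. Atp5g3 was at 416 to 499 TPM across the 9 libraries. The row of Atp5g2 was at 3.78 to 35.0 TPM, but 36.7% of its stretches of 50 bases also occur in the pseudogene Gm10175, whose row held 282 to 386 TPM, so the order of the ring subunit genes is uncertain.

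**Figure D5:**
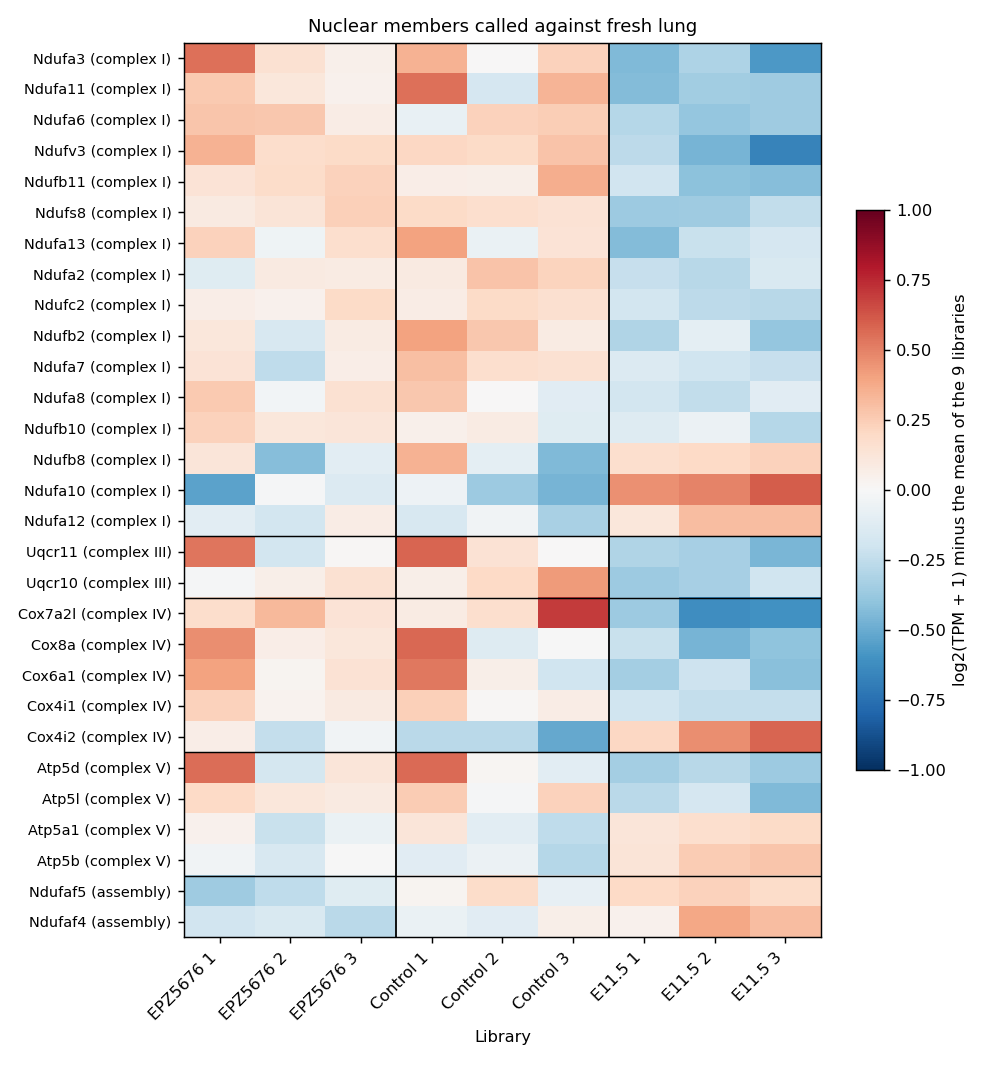
Nuclear members called in either comparison with fresh lung, by complex; colour gives log2(TPM + 1) minus the mean of the 9 libraries, from blue (lower) to red (higher). Most rows are red in the EPZ5676 and Control columns and blue in the E11.5 columns, and Ndufa10, Ndufa12, Ndufb8, Cox4i2, Atp5a1, Atp5b, Ndufaf4 and Ndufaf5 run the other way.

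Of the 9 assembly factors, 0 were called higher in either comparison (edgeR), and 2 were called lower with EPZ5676 (22.2%, beside 17.9% of all genes), both factors of early complex I assembly. Ndufaf4 was at 29.1, 29.9 and 27.5 TPM with EPZ5676, 31.7, 30.8 and 34.9 TPM in controls and 34.3, 43.8 and 41.6 TPM in fresh lung (EPZ5676 log2 fold change -0.46 ± 0.13, edgeR adjusted p = 0.0171; kept in 5 of 9 fits that left out a library). Ndufaf5 was at 15.0, 16.1 and 17.8 TPM, 19.8, 22.2 and 18.3 TPM, and 22.4, 23.0 and 22.2 TPM (-0.45 ± 0.16, edgeR adjusted p = 0.0456; kept in 2 of 9). Values of Ndufaf2 are uncertain, since 64.1% of its stretches of 50 bases occur in other annotated genes, and so are those of Ndufb4c, whose whole transcript is shared with Ndufb4.

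Promoters of the nuclear members were searched for cores bound by known regulators of these genes, in the 250 bases before each start in RefSeq (GRCm38.p6). Of the 97 nuclear members 74 had an entry, with 79 promoters. The core GCGCATG of NRF1, on either strand, was in 13.9% of them and in 3.2% of all 32851 mouse promoters of that length. CCGGAAG, the core of GABP and other ETS factors, was in 17.7% and 6.9%, AAGGTCA of the estrogen-related receptors in 6.3% and 4.1%, and AAGATGG of YY1 in 1.3% and 4.5%. Promoters were also split by call in controls, into 19 of members called higher (17 genes) and 57 of tested members not called so. In these sets the GABP core was in 15.8% and 19.3%. The core of the estrogen-related receptors was in 10.5% and 5.3%, and that of YY1 in 0% and 1.8%. No difference between the sets was tested. Of the 19 promoters 4 held the NRF1 core (21.1%), and of the 57 promoters 7 did (12.3%). Those 4 are printed 5′ to 3′ toward the gene, with capitals for matches to any of the 4 motifs; in Cox6a1 and Ndufa11 the NRF1 core is read on both strands and its matches overlap.
Cox6a1 (chr5:115348959-115349208, minus strand): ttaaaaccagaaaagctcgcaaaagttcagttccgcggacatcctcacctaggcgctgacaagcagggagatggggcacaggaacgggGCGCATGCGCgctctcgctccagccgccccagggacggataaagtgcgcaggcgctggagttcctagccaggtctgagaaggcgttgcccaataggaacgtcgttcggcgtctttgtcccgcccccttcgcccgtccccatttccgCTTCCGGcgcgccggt
Ndufa11 (chr17:56717512-56717761, plus strand): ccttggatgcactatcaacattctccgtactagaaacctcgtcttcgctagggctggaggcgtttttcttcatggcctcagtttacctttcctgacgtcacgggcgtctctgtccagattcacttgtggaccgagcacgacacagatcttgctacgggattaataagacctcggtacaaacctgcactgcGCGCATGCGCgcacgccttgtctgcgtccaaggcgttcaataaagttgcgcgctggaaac
Ndufa6 (chr15:82354292-82354541, minus strand): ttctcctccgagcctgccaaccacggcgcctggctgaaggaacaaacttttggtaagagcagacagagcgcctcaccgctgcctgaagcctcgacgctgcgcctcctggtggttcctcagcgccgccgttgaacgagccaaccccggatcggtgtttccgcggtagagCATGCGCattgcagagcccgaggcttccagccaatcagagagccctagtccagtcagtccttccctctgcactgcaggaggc
Atp5l (chr9:44920743-44920992, minus strand): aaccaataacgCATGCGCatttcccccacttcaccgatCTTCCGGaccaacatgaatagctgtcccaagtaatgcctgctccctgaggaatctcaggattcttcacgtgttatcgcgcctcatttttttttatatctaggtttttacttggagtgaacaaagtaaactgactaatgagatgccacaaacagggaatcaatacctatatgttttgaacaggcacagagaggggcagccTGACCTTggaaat

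Nuclear regulators of mitochondrial biogenesis were called in both directions in the same libraries. The median log2 fold change of the list against fresh lung was -0.14 with EPZ5676 and -0.11 in controls, beside 0.02 over all genes in each. Among the called genes Zbtb7b had the largest change in both comparisons, a rise. Of 14 tested, 5 were called higher and 2 lower with EPZ5676 (edgeR, 35.7% and 14.3%, beside 22.1% and 17.9% of all genes). In controls 4 were higher and 1 lower (28.6% and 7.14%, beside 21.1% and 16.6% of all genes). Ppargc1a, a coactivator of mitochondrial biogenesis, was at 5.03 ± 1.90 TPM with EPZ5676, 3.46 ± 0.83 TPM in controls and 1.95 ± 0.17 TPM in fresh lung (SD, n = 3 each), log2 fold changes of 1.13 ± 0.21 (edgeR adjusted p = 0.00181) and 0.87 ± 0.21 (edgeR adjusted p = 0.00854). Gabpb1, a subunit of GABP, was at 36.2 ± 4.65, 36.5 ± 4.71 and 57.7 ± 2.09 TPM, log2 fold changes of -0.76 ± 0.09 (edgeR adjusted p = 0.000113) and -0.68 ± 0.09 (edgeR adjusted p = 0.000267).

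Other lists of genes that serve mitochondria are given by their counts, to be read beside the 22.1% of all genes called higher and 17.9% lower with EPZ5676 and the 21.1% and 16.6% in controls. Of 22 tested genes that transcribe, copy or process mitochondrial DNA and its RNA, 1 was called higher and 7 lower (31.8%) with EPZ5676, and 1 and 8 (36.4%) in controls. Mterf3, a repressor of mitochondrial transcription, was at 63.6 ± 14.3, 66.1 ± 6.60 and 100 ± 7.41 TPM (-0.92 ± 0.15 with EPZ5676, edgeR adjusted p = 0.000941; -0.84 ± 0.15 in controls, edgeR adjusted p = 0.00182), and Elac2, which cuts mitochondrial tRNA ends, at 15.1 ± 1.87, 15.6 ± 3.25 and 24.3 ± 1.68 TPM. Of 78 mitochondrial ribosomal protein genes 1 was higher and 15 lower (19.2%) with EPZ5676, and 1 and 11 (14.1%) in controls; of 31 genes of import and inner membrane structure 0 were higher and 6 lower (19.4%) in each. In both of these lists the share called lower was near that of all genes. The chaperonin Hspd1 was at 357 ± 28.9 TPM with EPZ5676, 357 ± 32.7 TPM in controls and 625 ± 61.9 TPM in fresh lung (-0.82 ± 0.14 and -0.80 ± 0.14, edgeR adjusted p = 0.000941 and 0.00123). Of 27 complex IV assembly factors 2 were higher and 2 lower with EPZ5676 and 1 and 6 in controls, and Sco1, a copper carrier, fell in both (-0.55 ± 0.12 and -0.57 ± 0.12, edgeR adjusted p = 0.00549 and 0.00476). Other lists gave 0 and 3 calls in each comparison for 10 further complex I assembly factors, 0 and 2 with EPZ5676 and 0 and 1 in controls for 4 complex V factors, and 0 for the 4 complex II and 6 complex III factors. In these lists higher and lower calls are given in that order, and their medians lay between -0.29 and 0.04 on the log2 scale, beside 0.02 over all genes.

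Genes of fuel supply were counted in the same way. Of 22 tested genes of glycolysis and the hypoxia response, 4 were called higher (18.2%) and 8 lower (36.4%) with EPZ5676, and 2 higher (9.09%) and 12 lower (54.5%) in controls, beside 22.1% and 17.9% and beside 21.1% and 16.6% of all genes, with medians of -0.38 and -0.46. Eno1, a glycolytic enolase, was at 105 ± 6.12 TPM with EPZ5676, 87.2 ± 5.65 TPM in controls and 259 ± 27.9 TPM in fresh lung (-1.29 ± 0.11 and -1.53 ± 0.12, edgeR adjusted p = 2.26e-05 and 1.16e-05). Slc16a3, which exports lactate, was at 10.8 ± 2.48, 2.87 ± 0.63 and 26.4 ± 6.14 TPM, and against controls its log2 fold change with EPZ5676 was 1.69 ± 0.28 with an edgeR adjusted p of 0.131. In that comparison 0 of the 22 genes were called (edgeR), 6 had an unadjusted p under 0.05, and 18 lay above 0, beside 49.2% of all genes. Of 25 genes of the citric acid cycle and pyruvate entry, 1 was higher and 4 lower (16%) with EPZ5676 and 3 and 5 (20%) in controls, shares called lower near those of all genes; Mpc2, a subunit of the pyruvate carrier, rose by 0.60 ± 0.13 and 0.80 ± 0.13 (edgeR adjusted p = 0.00393 and 0.00085). Of 21 genes of cytochrome c, ubiquinone synthesis and other carriers, 2 were higher and 2 lower (9.52%) with EPZ5676 and 1 and 3 (14.3%) in controls, and Cycs, cytochrome c itself, was at 30.8 ± 2.25, 35.4 ± 1.55 and 52.8 ± 3.64 TPM (-0.62 ± 0.13 and -0.41 ± 0.13, edgeR adjusted p = 0.00373 and 0.0302).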

How the data were processed

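RNA of 9 mouse lung libraries was extracted with TRIzol and made into libraries with a Vazyme VAHTS Universal V8 kit, per the labels' protocols. RSEM, Bowtie2 and the build mm10 are named in the submitters' processing notes; neither versions nor the strand setting are given in the sources used here. Whether reads of overlapping genes on opposite strands were kept apart is therefore unknown. The authors deposited expected counts, which need not be whole, and TPM per gene. Expected counts were rounded and tested with edgeR 4.0.16 (R 4.3.3): filterByExpr with a minimum count of 10, TMM scaling, the robust quasi-likelihood test on all 9 libraries with 6 residual degrees of freedom, and Benjamini-Hochberg adjustment over all genes tested, called at 0.05. TPM describe levels, and limma 3.58.1 on log2(TPM + 1) and DESeq2 1.42.0 were alternatives, besides other scalings and filters and leaving out each library. Members and lists were chosen with earlier results of these data known. Named members were all mitochondrial genes, complex II, isoform families, and per complex and comparison up to 4 called members with the largest change and the 2 with the highest TPM; from each other list up to 3 called genes were eligible. Ndufs8, Ndufa10, Ndufb8, Ndufa2, Ndufa8, Ndufa13, Ndufb10, Ndufc2, Uqcrc2, Uqcrfs1, Ndufb4c and the genes not tested fall outside that rule and were named after their values were seen. Shared 50-base stretches, coordinates and mitochondrial sequences come from GENCODE M21 transcripts (GRCm38), and promoters from RefSeq (GRCm38.p6). Tests were tried on simulated counts first.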

Additional observations from a re-analysis of the deposited data

How the results depend on the processing

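In the comparison of EPZ5676 with control explants, 0 members were called under every alternative run. In controls against fresh lung, where 23 members were higher and 3 lower, the number lower was 1 with no filter on low counts, 1 with 6 libraries in the fit, and 6 with limma on log2(TPM + 1) or log2(TPM + 0.1), and the number higher was 7 with limma and no filter. Leaving out 1 library gave 12 to 31 higher and 0 to 3 lower. With EPZ5676 against fresh lung, where 20 were higher and 6 lower, 1 was lower with no filter, and limma with no filter gave 5 higher and 1 lower; leaving out 1 library gave 6 to 22 higher and 0 to 8 lower. The cause of these shifts was not tested, other than that the unfiltered fits adjust over more genes. With the replicate number as a block, the counts were 22 and 3 for controls, 18 and 5 for EPZ5676, and 0 and 0 between them; deviations of same-numbered EPZ5676 and control libraries correlated at 0.457, 0.079 and -0.047. Since 2 of the 3 lay under 0.1, the numbers were not taken as pairs, although the libraries numbered 1 deviated together. A selection of 101 log2 fold changes, each of 1 gene in 1 comparison, was followed gene by gene. They are not the 101 tested members, and some were not called in the main fit. Of their values under an alternative, 1810 kept their direction and side of the threshold, including results that stayed uncalled. Another 262 were no longer called, 46 became called and 0 turned sign. Signs did change outside this selection: with EPZ5676 against controls 75 members lay below 0, and 31 without Control 3. With 3 libraries a group, an exact test of a single value cannot go below 0.1, and low genes such as Cox4i2 rest on few counts.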
